A study of Mus musculus with 8 samples.

Results

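The genes described here are 10 that encode inhibitory receptors of T cells, with their partners in exhaustion programs: Ctla4, Pdcd1, Lag3, Havcr2, Tigit, Cd160, Btla, Cd96, Cd200 and Tox. They were taken by gene name from the 49212 genes of the count files, all 10 were found, and the rule that picks them uses gene names and no measured value, although the list was drawn up with earlier results of these data known. RNA-seq was performed on CD44+ effector Treg (eTreg) cells, sorted as CD45+ CD3+ CD4+ YFP+ cells, in 8 libraries with 2 in each of 4 groups. WT mice carried Foxp3-YFP-Cre, in which the Foxp3 promoter drives a YFP-Cre fusion, and KO mice carried Prdm1fl/fl as well, so that Prdm1, the gene of the transcriptional repressor Blimp1, was deleted by Cre in Foxp3-expressing cells. All mice were C57BL/6, 5 to 10 weeks old by the general rule of the methods, bore subcutaneous B16-OVA melanoma of at most 1.5 cm3, and received NP-OVA in adjuvant on day 0 and again on day 7, and from them spleen and tumor-infiltrating (TIL) cells were compared. Whether the replicates of a group were separate mice was not given in the sources used here, so p-values measure the spread between these libraries, which may be technical.

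Checkpoint receptors dampen T cell activation by competing with costimulatory receptors for ligands or by recruiting phosphatases to the antigen receptor. On Treg cells several of them also take part in suppression, CTLA-4 above all, which binds CD80 and CD86 on antigen-presenting cells and removes them from the cell surface. TOX is a nuclear protein of exhausted T cells that is induced by chronic antigen receptor signaling and maintains expression of several of these receptors.

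The libraries held 27834676 to 43903859 counts on genes, so that 3 counts corresponded to 0.0683 to 0.108 CPM (a gene's counts relative to the library total, on a common scale), and the lowest count of any of the 10 genes in any library was 131. Levels below are CPM after TMM scaling of all 8 libraries together. Prdm1 was at 54.0 and 21.0 CPM in WT spleen against 40.6 and 53.4 CPM in the splenic libraries labelled KO. In TIL its level was 108 and 192 CPM for WT against 90.7 and 75.1 CPM for the libraries labelled KO. The genotypes therefore overlapped in spleen and not in TIL, and because the counts cover the gene as a whole, Prdm1 does not check the KO label in spleen. Foxp3, the gene whose promoter drives the sort reporter, was at 25.5 and 60.4 CPM in WT TIL and at 10.2 and 2.99 CPM in KO TIL, and the KO TIL values lay below those of all other libraries (43.0 to 69.6 CPM in spleen).

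The KO TIL libraries stood apart from the others in their markers, as the plot of marker lists shows. The summed level of 5 Treg genes was 299.8 and 462 CPM in KO TIL against 2119 and 3092 CPM in WT TIL, and that of 5 T cell genes was 998 and 3249.8 CPM against 3851 and 4986 CPM. The summed level of Cd8a and Cd8b1 was 406 and 2220.2 CPM in KO TIL against 148 and 48.2 CPM in WT TIL. Cd4, whose protein was a marker of the sort, reached only 148 and 66.2 CPM in KO TIL, against 807 and 1086 CPM in WT TIL. Cd8a exceeded Cd4 in each KO TIL library, at 217 and 1214 CPM, and in no WT TIL library. How far such RNA shaped the KO TIL levels of any of the 10 genes was not tested. KO TIL replicate 1 was the library richest in 8 macrophage genes, at 14755 CPM against 541 to 3162 CPM in the other TIL libraries, and KO TIL replicate 2 was richest in CD8 genes. Of the splenic libraries, WT replicate 2 had the highest summed macrophage level, at 2179 CPM against 309 to 842 CPM. Melanoma genes summed to 829.6 to 3199 CPM in the TIL libraries and at most 6.74 CPM in spleen, with Tyr and Slc45a2 at 0 in all 4 splenic libraries. Other lists moved less or held fewer reads. NK cell genes summed to 791 and 226 CPM in KO TIL replicates 1 and 2 and to 173 and 41.1 CPM in WT TIL. Most of each sum was Tyrobp, at 734 and 126 CPM in KO TIL and 165 and 40.1 CPM in WT TIL. Tyrobp was highest in KO TIL replicate 1, the library richest in macrophage genes. Neutrophil genes summed to 323 and 176 CPM in KO TIL and 61.8 and 4.55 CPM in WT TIL. Dendritic cell genes summed to 60.6 to 88.5 CPM in the 4 TIL libraries. B cell genes summed to 9.68 to 88.1 CPM and endothelial and fibroblast genes to 34.8 to 112 CPM over all 8. Cxcr5 and Bcl6, which mark follicular T cells, summed to 73.3 to 239 CPM in spleen and 22.9 to 56.3 CPM in TIL.

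**Figure D1:**
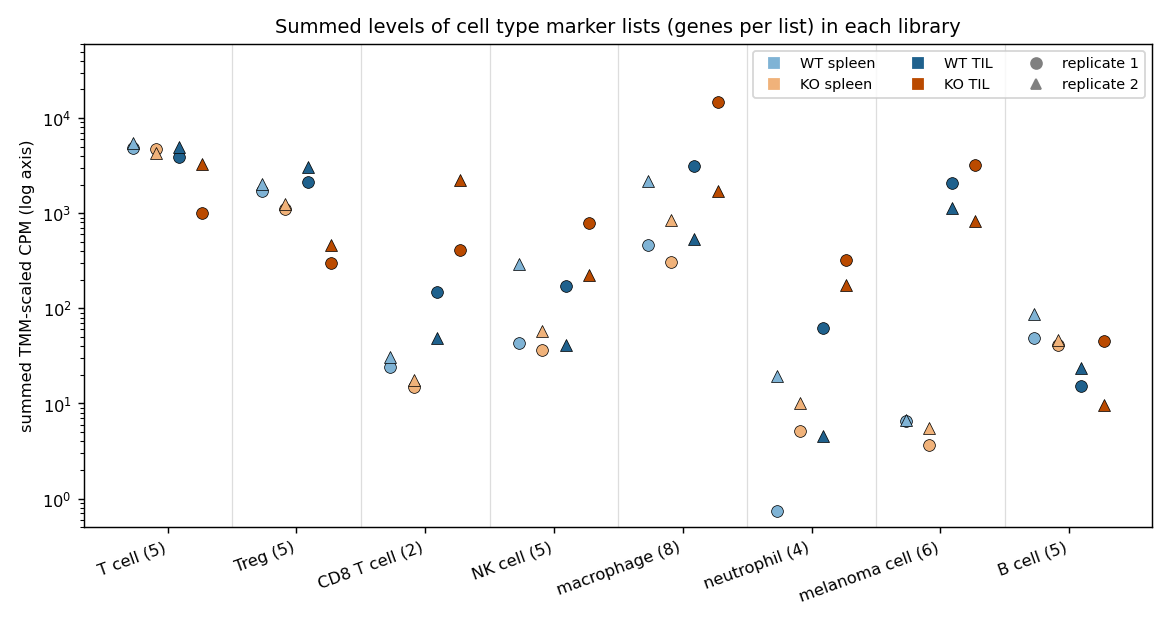
Summed CPM (log axis) of 8 marker lists in each library, with the number of genes in each list; colors give the groups and symbols the replicates. Both KO TIL libraries lay below both WT TIL libraries for Treg genes and above them for CD8 genes, and KO TIL replicate 1 had the highest macrophage level.

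Before TMM scaling the 10 genes together took 1223 to 8018 CPM, the least in KO TIL replicate 1 and the most in WT TIL replicate 2. Ctla4 alone made up 67.3% and 68.5% of the counts on the 10 genes in WT TIL, against 33.6% and 26.2% in KO TIL and 15.3% to 23.3% in spleen. Levels of different genes are compared as CPM per kilobase of annotated exons. In WT spleen Pdcd1 (193 ± 101 CPM per kb, SD, n = 2), Tigit (163 ± 5.11 CPM per kb), Ctla4 (150.1 ± 23.9 CPM per kb) and Cd96 (136 ± 37.3 CPM per kb) led, and no 2 neighbors in this order were apart. In WT TIL the leading genes were Ctla4 at 2115 ± 480.2 CPM per kb, Pdcd1 at 695 ± 147 CPM per kb and Tigit at 345 ± 79.1 CPM per kb, each apart from the next. In KO TIL the first and second places were held by Pdcd1 (470.3 ± 359 CPM per kb) and Ctla4 (296 ± 139 CPM per kb), which overlapped. The only neighbors apart there were Ctla4 and Tigit, and Cd200 and Btla. Lag3 stayed low on this scale, with group means of 6.03 to 14.3 CPM per kb.

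**Figure D2:**
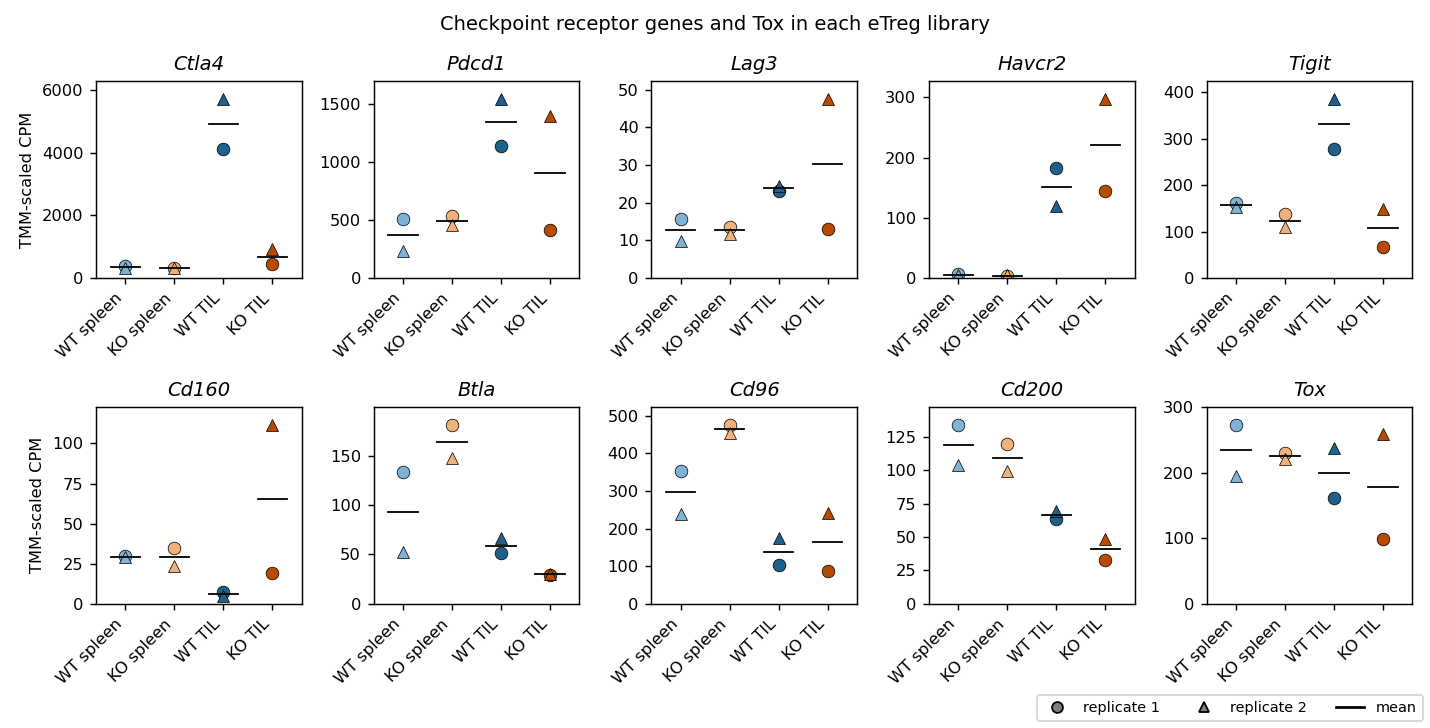
TMM-scaled CPM of the 10 genes in every library, 1 panel per gene with its own axis from 0; circles and triangles are replicates 1 and 2, lines are group means. Ctla4 was highest in WT TIL, Havcr2 was high in both TIL groups, and the KO TIL replicates differed widely for Pdcd1, Lag3 and Cd160.

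The genes lie on several chromosomes of GRCm38, and 4 of them, Btla, Cd200, Tigit and Cd96, between 43648861 and 46120251 of chromosome 16. Promoters from RefSeq (GRCm38.p6) matched 8 of the 10 genes. The 250 bases before the annotated start are shown for 6 genes that passed the test in a comparison of TIL with spleen, so that those that rose (Ctla4, Havcr2) can be read beside those that fell (Btla, Cd96, Cd200, and Cd160 in WT). They lie at chr1:60908775-60909024 (plus strand) for Ctla4, chr11:46454681-46454930 (plus strand) for Havcr2, chr16:45224087-45224336 (plus strand) for Btla, chr16:46120249-46120498 (minus strand) for Cd96, chr16:45409054-45409303 (minus strand) for Cd200 and chr3:96814522-96814771 (minus strand) for the downstream of both Cd160 starts. Capitals mark the letters GAAAG, the core of the sequence Blimp1 binds, or their reverse complement CTTTC, and TGANTCA, a site for AP-1, in either strand.
Ctla4: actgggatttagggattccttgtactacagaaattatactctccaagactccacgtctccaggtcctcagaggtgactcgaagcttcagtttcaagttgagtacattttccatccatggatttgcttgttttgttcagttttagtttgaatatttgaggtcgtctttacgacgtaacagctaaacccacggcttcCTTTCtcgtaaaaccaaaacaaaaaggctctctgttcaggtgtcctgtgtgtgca
Havcr2: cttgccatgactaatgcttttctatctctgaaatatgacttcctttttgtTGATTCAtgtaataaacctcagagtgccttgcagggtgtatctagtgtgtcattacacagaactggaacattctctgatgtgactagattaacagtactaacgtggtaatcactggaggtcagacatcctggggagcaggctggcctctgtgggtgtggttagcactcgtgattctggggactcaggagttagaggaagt
Btla: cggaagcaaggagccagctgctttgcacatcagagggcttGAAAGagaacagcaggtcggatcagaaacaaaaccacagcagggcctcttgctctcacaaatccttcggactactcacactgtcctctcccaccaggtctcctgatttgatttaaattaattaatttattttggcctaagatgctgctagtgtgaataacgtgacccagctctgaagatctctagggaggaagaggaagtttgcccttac
Cd96: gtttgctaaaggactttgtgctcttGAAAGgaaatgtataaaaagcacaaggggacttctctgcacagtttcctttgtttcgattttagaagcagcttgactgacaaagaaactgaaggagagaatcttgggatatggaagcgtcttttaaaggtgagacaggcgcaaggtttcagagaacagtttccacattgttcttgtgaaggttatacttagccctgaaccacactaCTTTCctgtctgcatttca
Cd200: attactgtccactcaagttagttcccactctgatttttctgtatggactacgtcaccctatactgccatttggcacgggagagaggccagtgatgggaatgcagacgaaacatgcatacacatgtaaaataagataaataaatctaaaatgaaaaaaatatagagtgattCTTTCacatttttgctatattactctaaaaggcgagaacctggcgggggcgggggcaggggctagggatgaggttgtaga
Cd160: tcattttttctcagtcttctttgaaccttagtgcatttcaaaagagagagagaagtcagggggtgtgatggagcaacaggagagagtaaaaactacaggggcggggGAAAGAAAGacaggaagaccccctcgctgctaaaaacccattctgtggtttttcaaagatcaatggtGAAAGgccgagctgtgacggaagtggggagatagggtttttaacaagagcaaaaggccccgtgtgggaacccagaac
The Blimp1 core occurred in these windows once in Ctla4, Btla and Cd200, at 2 places in Cd96 and at 3 before the shown Cd160 start, but 51.5% of all 32851 promoter windows hold it. The window before the upstream Cd160 start, which is not shown, held no Blimp1 core. Havcr2 was the only one of the 8 genes whose window held TGANTCA, which 6.75% of all windows hold. GGAAA, the core bound by NFAT, which can overlap GAAAG as GGAAAG, occurred in the windows of Ctla4, Pdcd1, Tigit, Cd96 and the shown Cd160 start, and in 55.6% of all windows. A match is a description of letters, and neither binding nor its absence was measured.

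The first question was how the receptors differ between tumor and spleen in WT cells. Ctla4 and Havcr2 rose in TIL and Cd160 fell, while Tox and Btla overlapped between the tissues. A gene passed when its Benjamini-Hochberg adjusted p in the quasi-likelihood test of edgeR was under 0.05 and its level differed by over 1 on the log2 scale. Here 3 of the 10 genes passed, where 5.97% of the 16427 genes tested did. The 2 that rose compare with 4.1% of all genes and the 1 that fell with 1.87%, and DESeq2's Wald test called 4 of the 10, where it called 9.91%. The median log2 fold change of the 10 was 0.33, with 5 above and 5 below 0, against -0.04 over all genes. In TIL 5 of the 10 lay above both splenic libraries without overlap, as 25.1% of all genes did, and 3 lay below, as 27% did.

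Ctla4 reached 4136 and 5718 CPM in WT TIL, against 389 and 311 CPM in WT spleen. The groups were far apart, with a log2 fold change of 3.82 (SE 0.54, edgeR adjusted p = 0.00398), or 14.1-fold. Havcr2 encodes TIM-3, a receptor for galectin-9 and CEACAM1 that is found on T cells and also on macrophages and dendritic cells. It was at 183 and 119.6 CPM in WT TIL and 6.76 and 4.67 CPM in WT spleen, a log2 fold change of 4.73 (SE 0.52, edgeR adjusted p = 0.00147). The low splenic values rested on 226 and 131 counts. Macrophage genes summed to 3162 and 541 CPM in WT TIL and 463 and 2179 CPM in WT spleen, overlapping between the tissues, and dendritic cell genes to 62.1 and 60.6 CPM in TIL and 13.9 and 24.1 CPM in spleen; their part in the Havcr2 level was not tested.

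Pdcd1 encodes PD-1, which recruits the phosphatase SHP-2. It was at 1142 and 1543 CPM in WT TIL and 511 and 235 CPM in WT spleen. Both TIL libraries were above both splenic ones, but the log2 fold change of 1.85 (SE 0.53) did not pass (edgeR adjusted p = 0.0721), whereas DESeq2's Wald test gave an adjusted p of 0.00669. Tigit competes with the costimulatory receptor CD226 for CD155 and was at 278 and 386 CPM in TIL and 161 and 154 CPM in spleen (log2 fold change 1.08, SE 0.44, edgeR adjusted p = 0.203). Lag3, a CD4 homolog that binds MHC class II, was at 23.2 and 24.5 CPM and at 15.7 and 9.95 CPM (log2 fold change 0.90, SE 0.49, edgeR adjusted p = 0.339). These 3 genes did not overlap between the tissues but did not pass.

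Cd160, a receptor for HVEM carried mostly by NK and CD8 T cells, ran the other way. It was at 7.72 and 4.96 CPM in WT TIL and at 29.8 and 29.1 CPM in WT spleen, a log2 fold change of -2.21 (SE 0.51, edgeR adjusted p = 0.0313). The call was lost without any one of WT TIL replicate 1, WT TIL replicate 2 or WT splenic replicate 2 (adjusted p = 0.170, 0.304 and 0.0941), and with all 8 libraries in the fit (adjusted p = 0.121). CD8 genes moved against it, with 148 and 48.2 CPM in WT TIL and 24.3 and 30.7 CPM in WT spleen. The NK gene Klrb1c fell as Cd160 did, at 1.40 and 0.0337 CPM in WT TIL and 15.1 and 11.2 CPM in WT spleen. Ncr1, of the same list, ran the other way, at 0.646 and 0.843 CPM in WT TIL and 0 counts in WT spleen. Of 3 NK genes tested here, 1 was higher in TIL and passed edgeR's test, where 4.1% of all genes did. The 2 that were lower did not pass. The part of NK cells was not tested. Btla, another receptor for HVEM, was at 51.3 and 66.4 CPM in TIL and 133 and 52.2 CPM in spleen (log2 fold change -0.65, SE 0.51), and the groups overlapped because WT splenic replicate 2 was low. Cd96, a CD155 receptor, was at 102 and 175 CPM in TIL and 354 and 239 CPM in spleen (log2 fold change -1.10, SE 0.48). Cd200, a membrane protein that engages an inhibitory receptor of myeloid cells, was at 63.2 and 69.7 CPM in TIL and 134 and 104 CPM in spleen (log2 fold change -0.84, SE 0.42). Neither overlapped and neither passed (edgeR adjusted p = 0.227 and 0.302). Tox was at 161 and 237 CPM in TIL and 273 and 195 CPM in spleen. Its log2 fold change of -0.23 (SE 0.45) was less than the spread between replicates.

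The same comparison was made in KO cells. Havcr2 rose and Btla fell in TIL, 2 of the 10 genes, where 1.35% of 16933 genes passed edgeR's test, 0.803% higher and 0.543% lower. DESeq2 called 4 of the 10, where it called 19.7% of genes. Havcr2 was at 145 and 297 CPM in KO TIL and 3.74 and 4.71 CPM in KO spleen, a log2 fold change of 5.71 (SE 0.47, edgeR adjusted p = 0.0366). Btla was at 29.2 and 30.7 CPM in KO TIL and 181 and 147 CPM in KO spleen, a log2 fold change of -2.44 (SE 0.22, edgeR adjusted p = 0.0373). Neither gene overlapped between the tissues. Both calls were lost when either KO splenic library was left out (adjusted p of 0.112 to 0.155), a step after which no gene of the table passed. Like Havcr2, macrophage genes were higher in KO TIL, at 14755 and 1718 CPM against 309 and 842 CPM in KO spleen. Dendritic cell genes were too, at 88.5 and 66.7 CPM against 13.2 and 17.5 CPM. Between the KO TIL libraries, Havcr2 was the higher in replicate 2 and both lists were the higher in replicate 1. The part of these cells in the Havcr2 level was not tested.

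Ctla4 in KO cells was at 461 and 917 CPM in TIL and 312 and 311 CPM in spleen (log2 fold change 1.15, SE 0.37, edgeR adjusted p = 0.122). Cd200 at 33.2 and 48.3 CPM in TIL and 119 and 99.5 CPM in spleen (log2 fold change -1.42, SE 0.26, edgeR adjusted p = 0.0611) and Cd96 at 86.3 and 241 CPM and 476 and 454 CPM (log2 fold change -1.51, SE 0.51, edgeR adjusted p = 0.131) did not overlap either. In KO TIL, 2 genes lay above both KO splenic libraries, where 30.6% of all genes did, and 3 lay below, where 32.9% did. Pdcd1, Lag3, Tigit, Cd160 and Tox overlapped, because KO TIL replicates 1 and 2 were far apart: 418 and 1398 CPM for Pdcd1, 12.9 and 47.6 CPM for Lag3, 67.0 and 148 CPM for Tigit, 19.2 and 112 CPM for Cd160 and 99.0 and 259 CPM for Tox. For these 5 genes replicate 2 was the higher. Without KO TIL replicate 1, 7 of the 10 genes passed, and Ctla4, Pdcd1, Lag3 and Cd160 were among those higher in the remaining library (log2 fold changes of 1.55, 1.49, 1.90 and 1.93), but 19.7% of all genes passed as well. Without replicate 2, 5 of the 10 and 26.8% of all genes passed. In these fits a lone library is assumed to vary like those of the other group. The median log2 fold change was 0.34, against 0.01 over all genes.

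With genotype as a covariate over all 8 libraries, Ctla4 (log2 fold change 2.48, SE 0.59, edgeR adjusted p = 0.0227) and Havcr2 (5.22, SE 0.39, edgeR adjusted p = 0.000661) rose in TIL, and Btla (-1.55, SE 0.44, edgeR adjusted p = 0.0423), Cd96 (-1.30, SE 0.36, edgeR adjusted p = 0.0364) and Cd200 (-1.13, SE 0.24, edgeR adjusted p = 0.0147) fell. These 5 of 10 genes compare with 16.5% of 17870 genes, 10.2% higher and 6.28% lower, and DESeq2 called 7 of the 10 and 20.7% of genes. Across both genotypes, Ctla4 and Havcr2 lay above all 4 splenic libraries in all 4 TIL libraries, as 14.1% of all genes did, and Cd200 lay below them, as 11.9% did. Without WT TIL replicate 1 only Havcr2 of the 10 passed, with 6.61% of all genes, and between 2 and 5 of the 10 passed without each other library in turn, with 6.22% to 16.1% of all genes. Since fewer expressing cells and less RNA per cell give the same change in a bulk library, these differences cannot be assigned to one or the other.

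**Figure D3:**
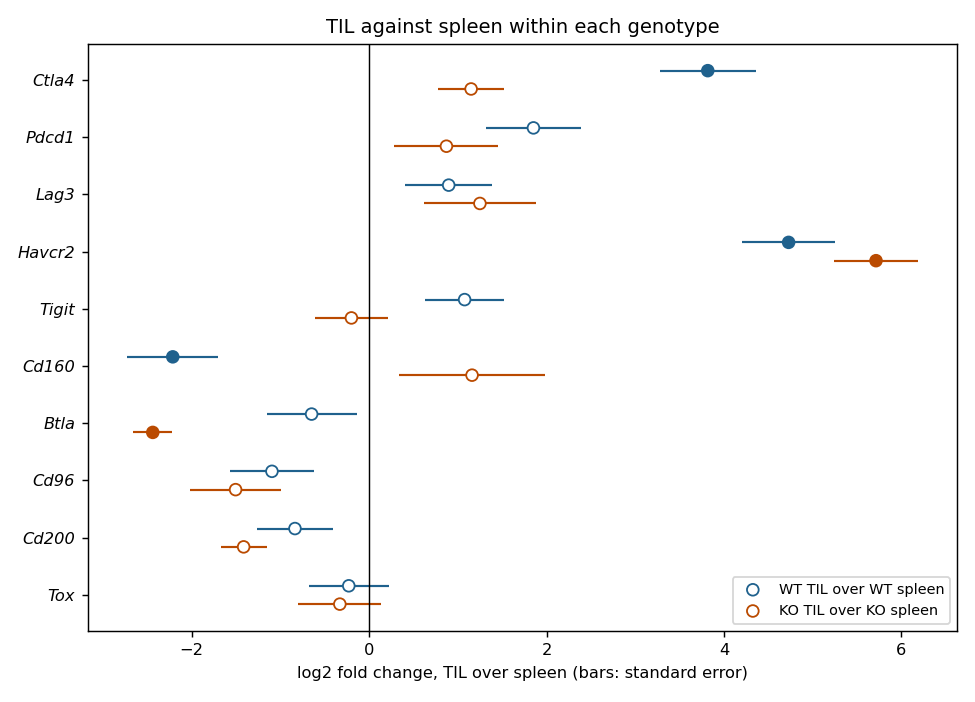
Log2 fold change of TIL over spleen for the 10 genes in WT (blue) and KO (orange), with bars of 1 standard error; filled points passed edgeR's test. Havcr2 was far above 0 in both genotypes, Ctla4 mainly in WT, and Cd160 lay below 0 in WT and above 0 in KO.

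The second question was what loss of Prdm1 changed in TIL cells. Ctla4, Tigit, Btla and Cd200 were lower and Cd160 was higher in both libraries labelled KO than in both WT libraries, but none of the 10 genes passed edgeR's test, as 0% of 15935 genes did. At an unadjusted p under 0.05 there were 4 of the 10 genes, 3 lower and 1 higher, where 9.87% of all genes were, 3.53% lower and 6.34% higher. DESeq2's Wald test called 2 of the 10, Ctla4 and Cd160, where it called 4.68% of 16264 genes. Of all genes, 19.4% lay below without overlap and 18% above. The median log2 fold change of the 10 was -0.36, against 0.04 over all genes.

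Ctla4 was at 461 and 917 CPM in KO TIL and at 4136 and 5718 CPM in WT TIL. Its log2 fold change was -2.84 (SE 0.50, unadjusted p = 0.00201, edgeR adjusted p = 0.212), that is a level of 0.140 of WT, and DESeq2's adjusted p was 2.76e-05. In the fit over all 8 libraries edgeR's adjusted p was 0.0354, and leaving out each library in turn gave log2 fold changes of -3.44 to -2.43, none of which passed. Tigit was at 67.0 and 148 CPM against 278 and 386 CPM (log2 fold change -1.63, SE 0.48, edgeR adjusted p = 0.36, DESeq2 adjusted p = 0.0753). Btla was at 29.2 and 30.7 CPM against 51.3 and 66.4 CPM (log2 fold change -0.98, SE 0.30, edgeR adjusted p = 0.380). Cd200 was at 33.2 and 48.3 CPM against 63.2 and 69.7 CPM (log2 fold change -0.71, SE 0.32, edgeR adjusted p = 0.571). Beside these lower values, all 5 Treg genes of the list were lower in KO TIL, with a median log2 fold change of -2.75, and DESeq2 called all 5; the part of Treg content was not tested.

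Cd160 was at 19.2 and 112 CPM in KO TIL and 7.72 and 4.96 CPM in WT TIL. This was the only one of the 10 genes above WT in both KO libraries, with a log2 fold change of 3.37 (SE 0.89, unadjusted p = 0.0118, edgeR adjusted p = 0.316) and a DESeq2 adjusted p of 0.00186. The value was 1.58 without KO TIL replicate 2 and 4.14 without replicate 1. Cd8a was at 217 and 1214 CPM in KO TIL and 71.8 and 9.68 CPM in WT TIL, so that the library highest in Cd8a was also the highest in Cd160. There were 0.0885 and 0.0920 Cd160 counts per Cd8a count in KO TIL, 0.108 and 0.512 in WT TIL, and 4.89 to 11.7 in spleen, where Cd8a was at 2.33 to 5.96 CPM and Cd160 at 23.6 to 34.8 CPM. The part of CD8 T cell RNA in the TIL difference was not tested. Of the NK list, Klre1 was at 22.1 and 90.3 CPM in KO TIL and 5.93 and 0.135 CPM in WT TIL. Ncr1 was at 13.4 and 1.53 CPM and at 0.646 and 0.843 CPM, with 0 counts in spleen. Klrb1c, of the same list, was at 19.8 and 7.74 CPM in KO TIL and 1.40 and 0.0337 CPM in WT TIL. It was present in spleen, at 9.45 to 15.1 CPM.

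Pdcd1, Lag3, Havcr2, Cd96 and Tox overlapped between the genotypes in TIL, with log2 fold changes of -0.57, 0.34, 0.55, 0.24 and -0.16 and standard errors of 0.45 to 0.64. For Pdcd1, KO TIL replicate 1 lay below both WT libraries at 418 CPM and replicate 2 between them at 1398 CPM. For Lag3 and Cd96 the KO replicates lay on either side of both WT libraries. For each of these genes the sign depended on which KO TIL library was used, and for none was a difference detectable beyond the spread between replicates.

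The same question was asked in spleen. None of the 10 genes passed edgeR's test or DESeq2's, where edgeR called 0% of 16583 genes and DESeq2 0.416%, and none had an unadjusted p under 0.05, where 2.95% of all genes did. For Btla, the libraries labelled KO had 181 and 147 CPM and the WT libraries 133 and 52.2 CPM, with a log2 fold change of 0.82 (SE 0.48). For Cd96 the values were 476 and 454 CPM against 354 and 239 CPM, with a log2 fold change of 0.64 (SE 0.36). Both lay above without overlap, as 16.4% of all genes did. Tigit had 138 and 110.2 CPM against 161 and 154 CPM for WT, below without overlap as 15.7% of all genes were (-0.35, SE 0.33). The other 7 genes overlapped, with log2 fold changes of -0.44 to 0.41. The values for Pdcd1, Btla and Cd96 leaned on WT splenic replicate 2, the library with 2179 CPM of macrophage genes: compared with that library alone, leaving out WT splenic replicate 1, their log2 fold changes were 1.13, 1.71 and 1.02 and passed edgeR's test (adjusted p = 0.00226, 0.00122 and 0.00226). In that fit 22.1% of all genes passed and the spread came from the 2 KO libraries alone. Without replicate 2 none of the 10 genes passed, and 0.267% of all genes did.

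**Figure D4:**
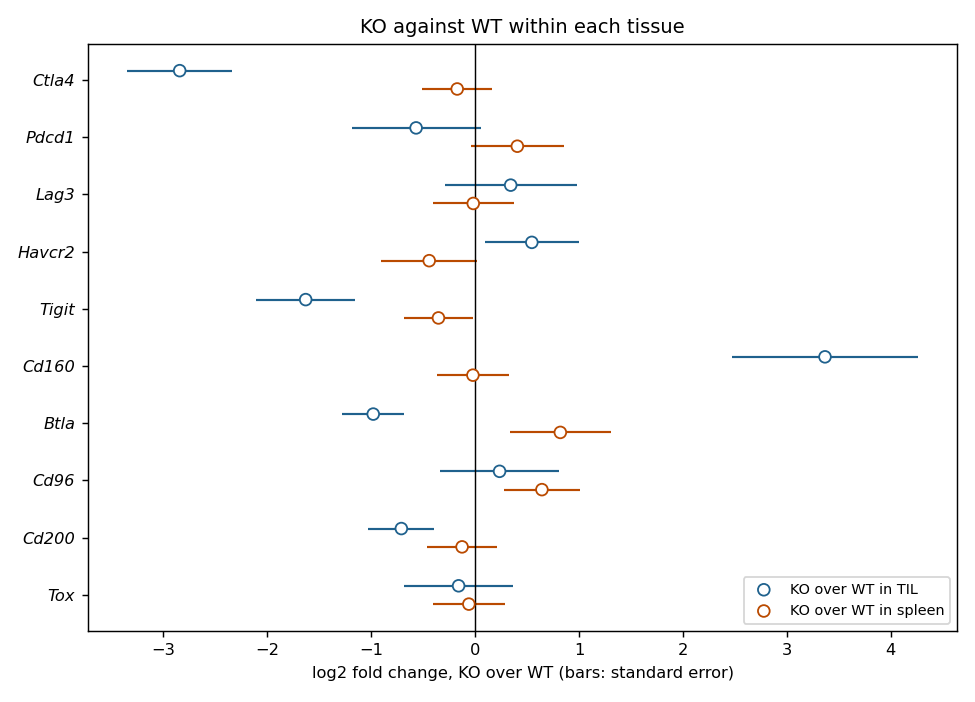
Log2 fold change of KO over WT for the 10 genes in TIL (blue) and spleen (orange), with bars of 1 standard error; open points did not pass edgeR's test, and none passed. Ctla4 and Tigit lay below 0 and Cd160 above 0 in TIL, while all splenic values lay between -0.44 and 0.82.

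With tissue as a covariate, none of the 10 genes passed edgeR's test for genotype, as 0% of 17870 genes did, nor DESeq2's, as 0.696% did. At an unadjusted p under 0.05 in edgeR there were 2 genes, Ctla4 (log2 fold change -1.50, SE 0.58, edgeR adjusted p = 0.747) and Tigit (-0.99, SE 0.36, edgeR adjusted p = 0.738), where 6.57% of all genes were. Tigit was the only gene of the 10 with all 4 KO libraries below all 4 WT libraries, as 0.963% of all genes had, while none had all KO libraries above, as 1.06% had, although the margin between the highest KO value of 148 CPM and the lowest WT value of 154 CPM was small.

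The difference between the genotype effects in TIL and spleen was tested as an interaction. No gene passed with edgeR (0% of 17870), and 3 of the 10 had an unadjusted p under 0.05, where 7.83% of all genes did. For Ctla4 the interaction was -2.67 on the log2 scale (SE 0.58, unadjusted p = 0.00152, edgeR adjusted p = 0.261), for Cd160 3.38 (SE 0.99, unadjusted p = 0.00808, edgeR adjusted p = 0.401) and for Btla -1.80 (SE 0.62, unadjusted p = 0.0184, edgeR adjusted p = 0.496). DESeq2's Wald test called the first and second (adjusted p = 0.00507 and 0.0312), among 1.85% of genes, and not Btla (adjusted p = 0.237). The other 7 interactions ranged from -1.28 to 0.99.

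Because T cell genes differed between libraries, each gene was also expressed per 100 counts on Cd3d, Cd3e, Cd3g and Cd247, a ratio within a library that holds no scaling factor. Ctla4 was at 136 and 147 in WT TIL, 54.2 and 28.8 in KO TIL, 9.76 and 6.09 in WT spleen and 8.32 and 9.14 in KO spleen. On this scale, as in CPM, WT TIL was highest and KO TIL lay between WT TIL and spleen, with no overlap among these 3 levels. Pdcd1 was at 49.1 and 43.9 in KO TIL and 37.5 and 39.6 in WT TIL, so that KO was the higher here, against 4.61 to 14.3 in spleen. Havcr2 was at 17.1 and 9.34 in KO TIL, above the 6.02 and 3.07 of WT TIL, and at most 0.170 in spleen. Lag3 was at 1.52 and 1.49 in KO TIL, 0.761 and 0.627 in WT TIL and at most 0.393 in spleen, an order that CPM did not show. Cd160 was at 2.26 and 3.51 in KO TIL, 0.254 and 0.127 in WT TIL and 0.570 to 0.928 in spleen, so that relative to CD3 it lay below spleen in WT TIL and above spleen in KO TIL without overlap. Tigit stayed lower in KO TIL (7.87 and 4.65) than in WT TIL (9.13 and 9.89), while Btla (3.44 and 0.963 against 1.69 and 1.70) and Cd200 (3.90 and 1.52 against 2.08 and 1.79) overlapped. Cd96 (10.1 and 7.58 against 3.36 and 4.49) and Tox (11.6 and 8.13 against 5.29 and 6.09) were higher in both KO TIL libraries. The share of all genes that did the same per CD3 count was not determined. A typical gene also rose in KO over WT TIL under CD3 scaling, where the median log2 fold change of all genes was 1.35. CD3 counts can come from any T cell, CD8 T cells included, and the part of those cells in these ratios was not tested.

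**Figure D5:**
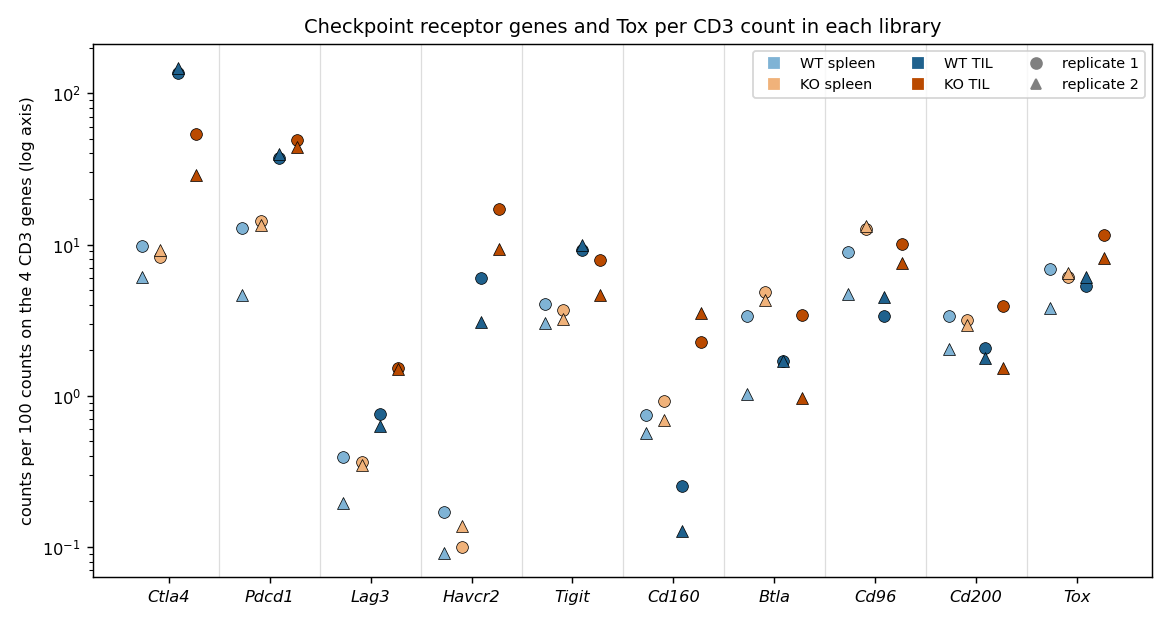
Counts of each of the 10 genes per 100 counts on the 4 CD3 genes in every library (log axis); colors give groups and symbols replicates. KO TIL lay between WT TIL and spleen for Ctla4 and above all other groups for Pdcd1, Lag3, Havcr2, Cd160 and Tox.

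Scaling the libraries to the CD3 genes in the fit moved the median log2 fold change of all genes by 1.31 in KO over WT in TIL, so that 8 of the 10 genes were then above 0 in place of 4. Relative to the median of all genes on that scale, 1.35, only Cd160 and Havcr2 (1.54) of the 10 lay higher. Under this scaling Pdcd1, Btla, Cd200 and Tox changed sign in TIL, while Ctla4 and Tigit stayed below 0 and Cd160 was at 3.92, none passing edgeR's test. Between tissues in WT, Ctla4 (4.16), Havcr2 (5.12) and Pdcd1 (2.14, edgeR adjusted p = 0.0454) passed on this scale and Cd160 did not (-1.79, edgeR adjusted p = 0.127).

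Each gene was also expressed per Foxp3 count. Ctla4 stood at 5.35 to 7.25 counts per Foxp3 count in spleen, 162 and 94.6 in WT TIL, and 45.1 and 307 in KO TIL, where replicate 2 held 80 Foxp3 counts. The KO TIL replicates lay on either side of WT, so no order of the genotypes in TIL could be read from this ratio. Tigit was at 6.56 and 49.5 counts per Foxp3 count in KO TIL and 10.9 and 6.38 in WT TIL, which overlapped. Per Cd4 count Tigit was at 0.453 and 2.24 in KO TIL and 0.345 and 0.355 in WT TIL, so that KO was the higher. Its order in TIL thus depended on the gene it was divided by. Tigit was at 2.24 and 2.19 counts per count of its competitor Cd226 in WT TIL, against 1.36 and 0.751 in KO TIL. In spleen the ratio was 1.41 and 2.38 in WT and 1.01 and 1.09 in KO, so that in each tissue both KO libraries lay below both WT libraries. Cd226 itself was at 49.2 and 197 CPM in KO TIL, the higher in replicate 2, the library richest in CD8 genes. The part of CD8 T cells in this ratio was not tested, and the share of gene pairs with such an order was not determined.

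The ligands of these receptors were read in the same libraries, where their RNA can come from any cell in the sort. Of 16 ligands, 13 were tested between the tissues in WT and 14 in KO, and none passed edgeR's test in either, with 5 and 6 of them higher at an unadjusted p under 0.05 (10.4% and 17.4% of all genes) and 2 and 5 called higher by DESeq2 (6.5% and 13.1% of all genes). Over all 8 libraries 4 of 13 rose in TIL, where 10.2% of all genes did, and none fell: Cd80 (log2 fold change 1.07, SE 0.30), Cd274, which encodes PD-L1 (1.76, SE 0.49), Lgals3 (3.30, SE 0.64) and Ceacam1 (5.21, SE 1.14), with edgeR adjusted p-values of 0.0416, 0.0396, 0.0112 and 0.0170. Lgals3 was at 2179 CPM and Cd274 at 561 CPM in KO TIL replicate 1, the library highest in macrophage genes, against 274 to 846 CPM and 126 to 171 CPM in the other TIL libraries; the part of macrophages was not tested. Ceacam1 and Cd86, with the largest differences without overlap between the genotypes in TIL, had log2 fold changes of 3.30 and 1.33 and did not pass edgeR's test (adjusted p = 0.476 and 0.462). Ceacam1 was at 48.5 and 4.71 CPM in KO TIL and 4.09 and 1.28 CPM in WT TIL. Cd86 was at 204 and 83.9 CPM and at 59.7 and 54.8 CPM. Both were highest in KO TIL replicate 1 too, and the part of macrophages was not tested for them either.

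Of 16 costimulatory partners and signaling proteins, Icos, the inducible costimulator, rose in WT TIL and Sh2d1a, the adaptor SAP, fell, where 4.1% and 1.87% of all genes did. Icos was at 1399 and 1651 CPM in WT TIL, 426 and 404 CPM in WT spleen, 289 and 392 CPM in KO TIL and 553 and 436 CPM in KO spleen. The log2 fold change between the tissues was 1.88 in WT (SE 0.47, edgeR adjusted p = 0.0420), and -0.53 in KO (SE 0.26, edgeR adjusted p = 0.247). Sh2d1a had a log2 fold change of -2.19 in WT (edgeR adjusted p = 0.0333), and over all libraries Sh2d1a (-2.13) and the kinase gene Fyn (-1.27) fell in TIL (edgeR adjusted p = 0.00790 and 0.0321). None of the 16 passed between the tissues in KO, where DESeq2 called 3 of them and 19.7% of all genes. Between the genotypes in TIL none of the 16 passed edgeR's test either. Icos (-2.17) and the adaptor gene Grb2 (1.61) differed most without overlap there (edgeR adjusted p = 0.201 and 0.297, DESeq2 adjusted p = 0.000141 and 0.0412). There were 2.96 and 3.46 Ctla4 counts per Icos count in WT TIL, 1.60 and 2.34 in KO TIL and 0.564 to 0.912 in spleen.

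The list of 13 other inhibitory receptors and ectoenzymes also held Cd276, which encodes B7-H3, a ligand of the B7 family. Cd276 was at 0 in all 4 splenic libraries and at 0.978 to 8.50 CPM in TIL. Against 3 counts per library it was at least 15.5-fold higher in WT and at least 66.9-fold higher in KO. It passed edgeR's test in WT and over all libraries. Its highest level was in KO TIL replicate 1, the library with the most macrophage and melanoma RNA, and the part of such cells was not tested. Cd244, a receptor of NK cells and CD8 T cells, rose in KO TIL (log2 fold change 5.0, SE 0.26, edgeR adjusted p = 0.0332), at 92.9 and 98.9 CPM against 2.66 and 3.37 CPM in KO spleen. Nt5e, which encodes the ectoenzyme CD73, fell in KO TIL (-3.71, SE 0.32, edgeR adjusted p = 0.0366), at 36.7 and 26.6 CPM against 475 and 367 CPM. Entpd1, which encodes CD39, rose over all libraries (1.91, SE 0.26, edgeR adjusted p = 0.00291), as did Cd244 (3.29, edgeR adjusted p = 0.0276). Klrg1, a marker of differentiated effector cells, was at 14.5 and 43.1 CPM in KO TIL and 369.9 and 324 CPM in WT TIL, a log2 fold change of -3.59 that did not pass edgeR's test (adjusted p = 0.207) and passed DESeq2's (adjusted p = 2.95e-06). The same held for Cd244 in KO over WT TIL (3.41, edgeR adjusted p = 0.252, DESeq2 adjusted p = 0.000101).

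Tox itself did not pass between the tissues, while factors linked to it did. Of 17 tested, 5 rose in WT TIL (Nr4a1, Nr4a2, Nr4a3, Tbx21, Bhlhe40) and 2 fell (Tcf7, Id3), where 4.1% of all genes rose and 1.87% fell. In KO TIL 3 rose (Nr4a1, Nr4a2, Bhlhe40) and 2 fell (Tox2, Tcf7), where 0.803% and 0.543% of all genes did. Nr4a1, an orphan nuclear receptor induced by antigen receptor signaling, was at 954 and 999 CPM in WT TIL, 878 and 545 CPM in KO TIL and 40.4 to 101 CPM in spleen, with a log2 fold change of 3.70 in both genotypes (edgeR adjusted p = 0.00458 and 0.0485). Tcf7, the factor TCF-1 of less differentiated T cells, was at 9.37 and 19.7 CPM in WT TIL, 55 and 66.3 CPM in KO TIL and 222 to 371 CPM in spleen (-4.07 in WT and -2.47 in KO, edgeR adjusted p = 0.00305 and 0.0374). Over all libraries 7 rose, with Prdm1 (1.41, edgeR adjusted p = 0.0389) and Id2 (1.44, edgeR adjusted p = 0.0184) added to the 5 of WT, and Tox2, Tcf7 and Id3 fell, where 10.2% and 6.28% of all genes did. None passed edgeR's test between the genotypes in TIL, where Eomes (4.25, edgeR adjusted p = 0.228) and Maf (-2.38, edgeR adjusted p = 0.319) differed most without overlap and DESeq2 called both (adjusted p = 3.68e-06 and 0.0150). In spleen none of the genes of these 4 lists passed edgeR's test, and DESeq2 called 1, Klrg1, lower in KO, as it did 0.0444% of all genes.

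The genes whose levels ran most like each receptor were ranked by Pearson's r of log2(CPM + 1) over the 8 libraries among 8981 genes with a mean of at least 10 CPM. Ctla4 ran most like Fam110a (r = 0.977), Isy1 and Tnfrsf9, the gene of the costimulatory receptor 4-1BB (r = 0.971). Havcr2 ran most like Vps37b (r = 0.994), Ccl3, a chemokine gene (r = 0.987), and Nmrk1. For Pdcd1 the leading genes were Mkrn2, Ppp1r16b and Atxn10, for Lag3 Sh2d2a, Ncl and Tiprl, for Tigit 2010111I01Rik, PVRIG and Zc3h15, for Cd160 Set, Pde7a and Rras2, for Btla Ankrd6, Vsig10 and Zfp235, for Cd96 Trim59, Lax1 and Osbpl5, for Cd200 Fam169b, Senp7 and Cog8, and for Tox Trav14-2, Cd2bp2 and Inpp1, with r of 0.946 to 0.991. These libraries share tissue, genotype and cell content, and the values are a description.

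Annotated exons of Cd160 overlap Pdzk1 on the opposite strand and those of Tox overlap Gm11802, and the strand setting of the counting was not given, so reads of these pairs cannot be told apart. Pdzk1 had at most 17 counts and Gm11802 at most 53 counts in any library.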

How the data were processed

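Ultra-low-input RNA-seq of sorted eTreg cells gave 8 libraries. Per the labels and the study's methods, the authors removed rRNA, primed with random hexamers, trimmed paired-end reads with Trimmomatic 0.36, aligned them to GRCm38 with STAR 2.5.2b and counted unique exon reads per gene with featureCounts (Subread 1.5.2). The strand setting is not given in the sources used here. The raw counts per gene deposited by the authors were used as deposited, and their normalized table of the same libraries was not used.

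Genes were tested with edgeR 4.0.16 in R 4.3.3 (TMM scaling, filterByExpr, quasi-likelihood test, Benjamini-Hochberg adjustment over all genes tested), and genes passed at an adjusted p under 0.05 with a change of over 1 on the log2 scale either way. The pairwise comparisons used their 4 libraries, and the additive and interaction fits all 8. The SE is the size of the log2 change divided by the square root of F. The alternatives were DESeq2 1.42.0 (Wald test, and its size factors in edgeR), no filter on low counts, scaling to CD3 genes, a fold threshold of 2 on the log2 scale, all 8 libraries in the fit, a replicate block, and leaving out each library. The floor of 3 counts covers counting error only.

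The members and gene lists were chosen with earlier results of these data known. All 10 members were named, with listed genes that passed in any fit and, per list, the 2 with the largest difference without overlap between the genotypes in TIL. Replicate numbers did not pair the samples (correlations of deviations from -0.27 to 0.29), since the labels do not say what a number shares. Promoter sequences are from RefSeq, GRCm38.p6.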

Additional observations from a re-analysis of the deposited data

Results flagged for a closer look

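For 10 of 69 receptor and listed genes (14.5%), both KO libraries lay on one side of both WT libraries in TIL and on the other side in spleen, as they did for 956 of all 17870 genes (5.35%). The values are the interaction of genotype and tissue on the log2 scale, and none passed edgeR's test of that difference. Among the receptors this was Btla, at -1.80 (edgeR adjusted p = 0.496), lower in KO in TIL and higher in spleen. Also lower in KO in TIL and higher in spleen were Icos at -2.42 (edgeR adjusted p = 0.234), Tox2 at -1.93 (0.486), Cd101 at -1.92 (0.477), Cd28 at -1.27 (0.657) and Inpp5d at -1.07 (0.808). The opposite held for Cd86 at 1.95 (edgeR adjusted p = 0.453), Grb2 at 1.81 (0.394), Nr4a2 at 1.76 (0.486) and Nr4a3 at 1.15 (0.674). Several splenic margins were small. The lowest KO and highest WT values there were 239 and 237 CPM for Inpp5d, 436 and 426 CPM for Icos and 59.9 and 57.0 CPM for Cd101. The highest KO and lowest WT values were 134 and 135 CPM for Grb2 and 16.2 and 17.2 CPM for Nr4a3. DESeq2 called the interaction for Icos (adjusted p = 0.00238).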

How the results depend on the processing

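With 2 libraries per group, 1 library decided many calls, and the CD3 scaling moved the median of all genes; the causes were not tested. DESeq2 size factors changed none of the 70 log2 fold changes of the 10 genes in side or direction. Under the replicate block 64 of 70 stayed the same, 3 newly passed, 2 no longer passed and 1 reversed (Lag3, KO over WT in spleen, 0.014). Those that newly passed were Pdcd1 in WT TIL over spleen (1.94, edgeR adjusted p = 0.0352), and Ctla4 (-2.91, edgeR adjusted p = 0.00912) and Tigit (-1.72, edgeR adjusted p = 0.0350) in KO over WT in TIL. Btla no longer passed in KO TIL over spleen (-2.43, edgeR adjusted p = 0.0538) or over all libraries (-1.52, edgeR adjusted p = 0.0651). The numbers share no stated batch, so this pairing is only a number: the block gave 1 in place of 2 of the 10 genes in KO TIL over KO spleen, and in KO over WT in TIL 2 in place of 0 of the 10 and 728 in place of 0 of all genes, with 101 in place of 0 in spleen.

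For all genes, DESeq2 called 1805 in place of 981 in WT TIL over spleen, 3813 in place of 228 in KO, 761 in place of 0 in KO over WT in TIL, 75 in spleen, 135 with tissue as a covariate and 307 for the interaction. Without a filter edgeR called 1922, 3183, 1072, 167, 688 and 752 in these comparisons, and 4541 in place of 2944 in TIL over spleen with genotype as a covariate, where a fold threshold of 2 left 1901. CD3 scaling gave 1716 in KO TIL over spleen and 11 in KO over WT in TIL, and all 8 libraries in the fit gave 1743 and 135. Of the 10 genes, DESeq2 called 4 in KO TIL over spleen, 2 in KO over WT in TIL and 2 for the interaction. Without a filter these were 4, 3 and 2, with 2 for genotype with tissue as a covariate. CD3 scaling gave 1 in KO TIL over spleen and 3 in place of 5 in TIL over spleen with the covariate, where a fold threshold of 2 left 2, and all 8 libraries in the fit gave 1 in KO over WT in TIL.

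CD3 scaling moved the median of all genes by 0.37 in WT TIL over spleen, 1.35 in KO, 1.31 in KO over WT in TIL, 0.33 in spleen, 0.87 and 0.82 in the additive fits and 1.0 in the interaction. The share of calls that were higher went from 68.7% to 81.0% in WT, 59.6% to 95.3% in KO and 61.9% to 93.3% over all libraries. Log2 fold changes that reversed were Tox (0.092) in WT TIL over spleen, Tigit (0.86) and Tox (0.65) in KO, Pdcd1 (0.27), Btla (0.38), Cd200 (0.49) and Tox (0.80) in KO over WT in TIL, Ctla4 (0.14), Lag3 (0.27), Cd160 (0.30), Cd200 (0.18) and Tox (0.24) in spleen, Cd160 (0.025) and Tox (0.37) in TIL over spleen with the covariate, Pdcd1 (0.47), Btla (0.72), Cd200 (0.33) and Tox (0.52) in KO over WT with the covariate, and Cd96 (0.24), Cd200 (0.31) and Tox (0.56) in the interaction. In KO over WT in spleen, Lag3 reversed with DESeq2 (0.014) and no filter (0.032), and Cd160 with both (0.019 and 0.040).

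Leaving out each library in turn, all genes called ranged from 213 to 1401 in WT TIL over spleen, 0 to 4958 in KO, 21 to 3972 in KO over WT in spleen, 1201 to 3126 in TIL over spleen with the covariate and 0 to 1 in KO over WT with the covariate. Of the 10 genes, 2 to 4, 0 to 7, 0 to 3 and 1 to 5 passed in the comparisons of WT and KO tissues, spleen and both tissues. Log2 fold changes crossed 0 in WT TIL over spleen for Btla (-1.14 to 0.19) and Tox (-0.50 to 0.049), in KO for Pdcd1 (-0.20 to 1.49), Tigit (-0.84 to 0.25), Cd160 (-0.56 to 1.93) and Tox (-1.14 to 0.20), in KO over WT in TIL for Pdcd1 (-1.70 to 0.057), Lag3 (-0.90 to 1.0), Havcr2 (-0.079 to 0.97), Cd96 (-0.70 to 0.80) and Tox (-1.03 to 0.38), and in spleen for Ctla4 (-0.32 to 0.064), Pdcd1 (-0.042 to 1.13), Lag3 (-0.30 to 0.41), Cd160 (-0.30 to 0.24), Cd200 (-0.29 to 0.13) and Tox (-0.28 to 0.27). In the additive fits Cd160 did so for tissue (-1.49 to 0.15) and Pdcd1 (-0.36 to 0.28), Lag3 (-0.36 to 0.41), Havcr2 (-0.30 to 0.27), Btla (-0.50 to 0.19) and Tox (-0.43 to 0.13) for genotype, and in the interaction Lag3 (-0.86 to 1.0), Cd96 (-1.33 to 0.14) and Tox (-0.95 to 0.42).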
